A study of Mus musculus with 15 samples.

Results

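RNA levels in 4 MYC-driven liver tumor nodules were compared with those in 4 livers of the same transgenic line taken before any tumor was present. These 8 arrays are all of the tumor and pre-tumor arrays among the 15 of the series, chosen by their sample labels and by no measured value. All mice were FVB/N, an inbred laboratory strain, and both groups carried LAP-tTA, a liver-expressed tetracycline transactivator driven by the LAP promoter, together with the TRE-MYC transgene. The transactivator is inactive while doxycycline is in the food, so that MYC is switched on in liver cells when the drug is withdrawn. Mice were kept on doxycycline chow of 200 mg/kg past 8 weeks of age. Tumor nodules were then taken 8 to 9 weeks after its removal, and pre-tumor livers 4 to 5 weeks after its removal. The MYC transgene was therefore on in both groups, while tissue and time off doxycycline differ together and cannot be told apart. For reference levels, 4 arrays of tumors from such mice 72 hours after the return of doxycycline (regression) and 3 arrays of livers with LAP-tTA alone (control) were also used. Controls thus share the transactivator and the chow but lack TRE-MYC, and their time off doxycycline is not given. Whether arrays stand for separate animals is not stated in the labels, so p-values measure the spread between these arrays.

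MYC is a transcription factor that pairs with MAX at E-box sequences and raises genes for ribosome production, nucleotide supply and cell growth, and members of the MXD family and MNT compete with it for MAX. The adult liver is made mostly of hepatocytes, which secrete plasma proteins, make bile acids and glucose, detoxify and run the urea cycle, and which rarely divide. Genes of fetal liver such as Afp, Igf2 and H19 are shut down after birth and are known to return in liver tumors.

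Each level below is the log2 of an array's processed Cy3 signal minus the log2 of that array's 75th percentile signal, so that 0 is the 75th percentile of the array and a step of 1 is a doubling. Levels of different probes are not comparable with each other, and a group's values are listed in the order of its array numbers. Well above background were 46.4% to 79.0% of spots on tumor arrays and 54.2% to 90.8% on pre-tumor arrays, lowest on tumor 3 and highest on pre-tumor 4. Signal of the E1A control spots was highest on pre-tumor 4, control 1, tumor 4 and pre-tumor 1. List counts that move by over 1.5 times, or leave or reach 0, without these 4 arrays are given with that value. Leaving them out keeps tumor 1 to 3 and pre-tumor 2 and 3, so calls may also be lost because fewer arrays remain. Across genes, which are not independent replicates, arrays correlated at r = 0.893 to 0.970 within the tumor group, at 0.878 to 0.944 within the pre-tumor group and at 0.729 to 0.865 between them. Each of the 4 slides held 1 tumor and 1 pre-tumor array.

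Mouse Myc was measured by 3 probes, which did not move together. Probe A_52_P108346 lay at chr15:61819528-61819587 in the authors' table (array annotation build mm9). Its level was 4.09, 3.66, 4.82 and 4.35 in tumor nodules, against 2.50, 0.08, 1.73 and 0.24 in pre-tumor livers. All tumor arrays were above all pre-tumor arrays, and pre-tumor 1 and 3 were above pre-tumor 2 and 4. It was -0.51, -0.22, -0.09 and -0.82 in regression tumors and -0.23, -0.94 and -1.62 in control livers, so every array with the transgene switched on was above every array without it. The tumor minus pre-tumor difference was 3.09 ± 0.50 on the log2 scale (SE, 8.51-fold, adjusted p = 0.000413 over 33957 probes), where 16.9% of all probes passed in either direction. The other probes went the other way. A_51_P102096 (chr15:61819627-61819687) had -3.23, -3.70, -2.32 and -3.35 in tumors, against -1.44, -2.68, -2.27 and -1.13 in pre-tumor livers, and was 1.27 log2 units lower with an adjusted p of 0.0498, at the edge of the threshold. It was well above background on 1 of the 4 tumor arrays and on all pre-tumor arrays. A_52_P278549 (chr15:61819036-61819095), the probe with the highest mean over the 15 arrays and so the one that stands for the gene elsewhere, had 0.60, 0.44, 1.23 and 1.01 in tumors, against 2.33, 1.65, 0.60 and 1.41 in pre-tumor livers, with overlapping groups and an adjusted p of 0.349. The labels do not say from which species the MYC transgene was taken, and which of these probes binds its RNA was not tested.

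**Figure D1:**
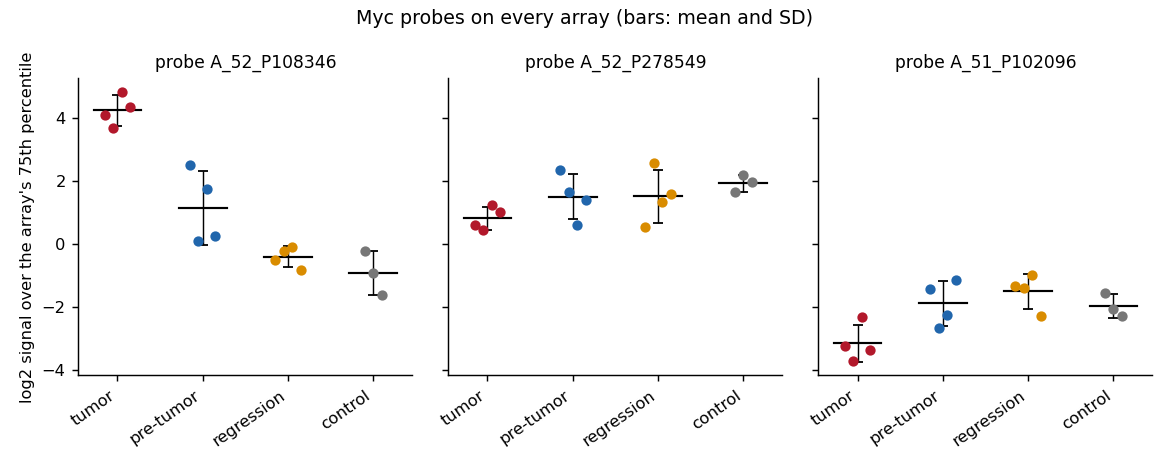
Level of the 3 Myc probes on each array (y axis, log2 signal over the array's 75th percentile) in tumor, pre-tumor, regression and control samples; points are arrays, lines and bars are the mean and SD. In probe A_52_P108346 the 4 tumor arrays lie between 3.66 and 4.82, above all other arrays, while the other probes are not higher in tumor.

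Of 19234 genes tested, 3692 (19.2%) differed between tumor and pre-tumor at an adjusted p under 0.05, 1918 (9.97%) of them higher in tumor and 1774 (9.22%) lower. At an unadjusted p under 0.05 there were 5607. Of the called genes, 1822 higher and 1731 lower ones differed at least 2-fold, while 70 higher and 269 lower ones differed at least 16-fold. The call itself may largely fix the 2-fold counts, since 10% of 2-fold changes passed in data simulated from the spread of each gene. That simulation changed 100 genes of each size among 19234, far fewer than were called here. Its adjusted threshold was thus stricter, so the true share of 2-fold changes that pass may be higher. Tumor and pre-tumor arrays did not overlap in 3266 of the called genes, and in 4060 (21.1%) of all genes tested. Of genes measured on all 4 slides, 3429 of 3611 called ones and 5462 of all 18594 (29.4%) moved the same way on each, and the call itself largely fixes these shares among called genes. The median log2 difference of all genes was -0.13. The RNA came from whole tissue, so fewer cells of a type and less RNA per cell cannot be told apart. Without the 4 arrays of highest E1A signal 1003 genes were higher and 1459 lower, and this is the setting that lowered the count of higher genes most.

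The largest rises among genes measured well above background in both groups were Afp, H19, Igf2, Bex1, Psat1, Bex3, Bex4, Scd2, Acss1, Ggt1, Birc5 and Dusp9, with log2 differences from 10.80 down to 5.22. The largest falls were Saa2, Saa3, Mup1, Ces3b, Mup3, Mup4, Cyp2e1, Orm1, Pon1, Cyp2f2, Serpina3c and Serpina3k, with log2 differences of -9.17 to -7.81. The first set holds fetal liver genes and genes of serine, acetate and glutathione metabolism, and the second holds plasma, urinary and detoxification proteins of the hepatocyte. A further 9 genes (0.0468%) were well above background on every tumor array and on no pre-tumor array, and 70 (0.364%) were so in pre-tumor only. For these the fold is a bound, the bright group's mean over the faintest signal that still counted as well above background in the dim group. In tumor, Knstrn, a spindle protein, was at least 38.2-fold higher, with a mean of 1.75 ± 0.39 in tumors and -4.46 ± 0.43 in pre-tumor livers (SD, n = 4 each). Baiap2l2 was at least 12.4-fold, Cdca7l at least 7.01-fold and the mitotic kinase Aurkb at least 6.65-fold higher. In the other direction Cyp2a12 was at least 58.1-fold lower, at -4.13 ± 0.75 in tumors and 2.94 ± 0.65 in pre-tumor livers (SD, n = 4 each). Aadat, an aminotransferase of lysine and tryptophan breakdown, was at least 42.4-fold lower, Pigr, the carrier of immunoglobulin A into bile, at least 29.4-fold and Cyp7b1, a hydroxylase of oxysterols, at least 26.1-fold. Of the genes given with a fold below, Fas, Zhx2, Baat, Ugt2b1, Iigp1, Ifit1 and Reln were well above background on 1 of 4 tumor arrays, and Bex2, A2m, Impdh1 and Rrm2 on 1 of 4 pre-tumor arrays, so that their folds rest largely on signals near background.

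**Figure D2:**
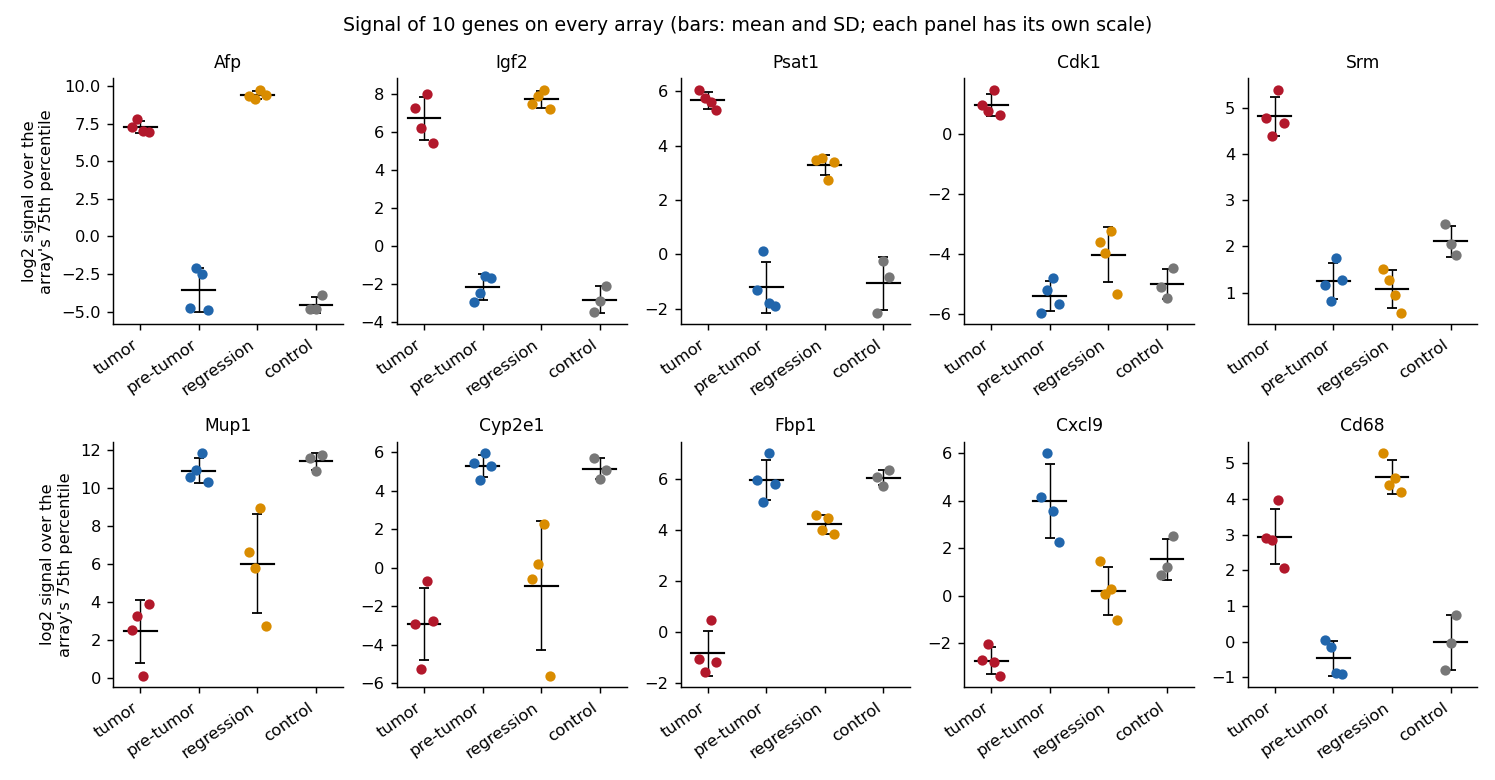
Level of 10 genes on each array (y axis, log2 signal over the array's 75th percentile, own scale per panel) in tumor, pre-tumor, regression and control samples; points are arrays, lines and bars are the mean and SD. Tumor and pre-tumor arrays do not overlap in any of the 10 panels: Afp, Igf2, Psat1, Cdk1, Srm and Cd68 are higher in tumor, and Mup1, Cyp2e1, Fbp1 and Cxcl9 lower.

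Of the 13 genes of the MYC and MAX network 2 passed, 15.4% beside 19.2% of all genes. Mxd1, a competitor of MYC for MAX, was lower in tumor by 2.14 ± 0.58 log2 units (SE, adjusted p = 0.0151). Mlxipl (ChREBP, a glucose-responsive factor) was lower by 1.34 ± 0.44 (SE, adjusted p = 0.0411). The first call was lost without the 4 arrays of highest E1A signal and in a fit of the 2 groups alone, and that of Mlxipl under 10 of 22 other settings, the first among them, so that none of the 13 passed there. Max, the partner of MYC, had a difference of 0.84 ± 0.38, Mnt one of 0.63 ± 0.35, and Mxd3, Mycn and Mycl lay between -0.05 and 0.03 (adjusted p 0.159 to 0.979).

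Genes that MYC is known to raise were higher in tumor: 20 of 29 measured MYC activation targets rose and the other 9 did not pass, with a median log2 difference of 1.63 against -0.13 over all genes. The strongest by test was Srm, spermidine synthase of the polyamine pathway, with 4.79, 4.40, 5.40 and 4.68 in tumors, against 1.17, 0.82, 1.75 and 1.28 in pre-tumor livers (11.8-fold, log2 difference 3.56 ± 0.33, SE, adjusted p = 1.2e-06). Cdk4, a kinase that drives cells out of G1, had 4.92, 4.55, 4.65 and 4.47 in tumors, against 1.17, 1.94, 2.16 and 1.14 in pre-tumor livers (8.26-fold, adjusted p = 1.43e-05). In both genes every tumor array was more than 2 units above every pre-tumor array. The nucleolar proteins Npm1 and Fbl rose 6.60-fold and 4.24-fold and Tfrc, the transferrin receptor, 6.29-fold. The polyamine enzyme Odc1 had a log2 difference of 1.88 and nucleolin, Ncl, of 2.65, both called. Ldha, Bop1, Shmt2 and Ccnd2 were among those that did not pass, Ldha with 0.91 ± 0.35 (SE, adjusted p = 0.0904). The mean level of 28 targets measured on every array ranged from 3.35 to 3.62 in tumors and from 1.53 to 2.34 in pre-tumor livers, beside 1.28 to 1.79 in regression tumors and 1.63 to 1.86 in control livers. The pre-tumor range, with MYC on, thus overlapped the control range, while the tumor range lay above both. Without the 4 arrays of highest E1A signal 12 of the 29 passed, all higher, where 12.8% of all genes did. The list median in that setting was 1.43.

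Because MYC and MAX bind the E-box CACGTG, which reads the same on both strands, the 250 bases before each transcription start were searched for it (RefSeq promoters, build GRCm38.p6). It was found in 8 of 23 MYC activation targets in that table (34.8%), a list of genes picked as known targets. Among oncofetal and progenitor genes 4 of 27 held it (14.8%). Ribosome biogenesis genes held it in 4 of 34 cases (11.8%) and cytochrome P450 genes in 1 of 24 (4.17%). The share was 11.1% of genes higher in tumor, 9.25% of genes lower, and 8.52% of the 14465 tested genes with a promoter in the table. A match is a description of the letters and not a binding site. Cdk4 is shown because it held 4 matches in its window, at chr10:127063285-127063534 on the plus strand, with the motif in capitals.
Cdk4: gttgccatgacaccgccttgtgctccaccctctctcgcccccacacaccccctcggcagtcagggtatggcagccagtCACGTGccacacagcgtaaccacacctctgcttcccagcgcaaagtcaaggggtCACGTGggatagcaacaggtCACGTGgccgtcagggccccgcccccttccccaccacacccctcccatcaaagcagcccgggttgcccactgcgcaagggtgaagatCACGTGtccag
Counted from the start, its matches began at positions -172, -118, -98 and -11. Bex4, shown because it alone held a match among the 9 of the 12 largest rises in that table, lies at chrX:136138746-136138995 on the plus strand, and Afp, the largest rise, at chr5:90490464-90490713 on the plus strand. Their windows read as follows, the motif again in capitals.
Bex4: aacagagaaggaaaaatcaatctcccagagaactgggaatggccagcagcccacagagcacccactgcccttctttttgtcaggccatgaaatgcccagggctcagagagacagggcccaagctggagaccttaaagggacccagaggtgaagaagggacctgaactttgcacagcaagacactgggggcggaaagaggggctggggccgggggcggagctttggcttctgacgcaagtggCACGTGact
Afp: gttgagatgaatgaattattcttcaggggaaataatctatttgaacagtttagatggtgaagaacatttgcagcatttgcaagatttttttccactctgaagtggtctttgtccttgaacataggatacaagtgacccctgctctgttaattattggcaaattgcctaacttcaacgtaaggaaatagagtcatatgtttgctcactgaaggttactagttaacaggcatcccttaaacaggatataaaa
Bex4 held 1 match, beginning at position -9, and the Afp window held none of these letters.

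Ribosome production moved together. Of 40 ribosome biogenesis genes, 28 rose in tumor and 12 did not pass, with a median log2 difference of 1.75. Nhp2, a protein of small nucleolar RNA particles, rose 7.55-fold, Nolc1 5.24-fold and Dkc1, the pseudouridine synthase dyskerin, 4.76-fold (adjusted p 7.99e-05 to 0.000151). Of 33 cytosolic ribosomal proteins, 31 rose, by a median of 1.67. Rplp0, a protein of the large subunit stalk, had 7.18, 6.76, 7.59 and 6.43 in tumors, against 4.32, 4.47, 5.41 and 4.17 in pre-tumor livers (5.26-fold, adjusted p = 0.000257), with no overlap. Rpl14 rose 7.45-fold, Rpl12 3.37-fold, Rpl13 2.93-fold and Rpl6 3.47-fold. Among 20 translation factors 12 rose, among them Eef1e1 at 3.91-fold, Eef1b2 at 3.41-fold and Eif3b at 3.10-fold. When the 4 arrays of highest E1A signal were left out, 12 of 40, 15 of 33 and 3 of 20 were higher, and 1 translation factor was lower. The list medians were then 1.41, 1.49 and 0.83, beside 1.75, 1.67 and 1.22 in the main fit. The mean difference of the ribosomal proteins was 0.55 to 2.18 over the 4 slides. Many ribosomal protein genes have processed pseudogenes that such probes may also bind.

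DNA replication genes rose in tumor in 31 of 38 cases and the other 7 did not pass, with a median log2 difference of 2.57. The helicase subunit Mcm7 had 3.74, 3.78, 3.27 and 3.62 in tumors, against -0.04, 0.71, 0.04 and 0.50 in pre-tumor livers (9.85-fold, adjusted p = 5.76e-07). Mcm6 rose 27.5-fold, Mcm2 23.1-fold over the 3 pre-tumor arrays with an unmarked spot, Cdt1, which loads the helicase, 27.6-fold, and Dut, which keeps uracil out of DNA, 15.5-fold. The spread among tumor arrays was small, and all stood above the pre-tumor arrays. Mitosis and cytokinesis genes rose in 33 of 40 cases, by a median of 3.06, the highest median of the 47 lists. Cdk1, the kinase that starts mitosis, had 0.99, 0.78, 1.499 and 0.66 in tumors, against -5.96, -5.21, -4.80 and -5.66 in pre-tumor livers, where it was well above background on no array, so it was at least 22.4-fold higher. Birc5 (survivin, of the chromosomal passenger complex) had 6.73, 6.997, 5.96 and 6.47 in tumors, against 1.66, 1.40, 0.97 and 1.03 in pre-tumor livers (38.7-fold, adjusted p = 3.45e-08). Mki67, the antigen used to stain dividing cells, had 1.79, 1.86, 1.78 and 1.27 in tumors, against -1.29, -1.92, -2.91 and -2.15 in pre-tumor livers (13.4-fold, adjusted p = 7.92e-05). The pre-tumor and control ranges overlapped here too: mitosis genes averaged 0.69 to 1.25 in tumors and -2.32 to -1.29 in pre-tumor livers, beside -2.01 to -1.61 in regression tumors and -2.28 to -1.81 in control livers. With those 4 arrays left out, 28 replication and 33 mitosis genes were higher.

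Among 24 cyclins, G1 kinases and CDK inhibitors, 6 rose and 2 fell, with 5 higher and 1 lower without the 4 arrays of highest E1A signal. Besides Cdk4, cyclin E2 (Ccne2) rose 4.40-fold and cyclin D3 (Ccnd3) 2.68-fold. Against this direction the CDK inhibitor Cdkn1c (p57), an imprinted brake on division, had 3.54, 3.56, 2.58 and 3.01 in tumors, against -0.30, -1.26, -0.34 and -0.38 in pre-tumor livers, a 13.4-fold rise (adjusted p = 2.04e-06). Rbl2, of the retinoblastoma family, fell by 1.38 log2 units, a call lost under 10 of 22 settings. E2f8 was called in both directions: its probe A_51_P431531 was higher by 2.38 log2 units, with 1 of 4 pre-tumor arrays well above background, and A_52_P1135379, well above background on no tumor array, was at least 1.90-fold lower. It is 1 of 6 genes with such opposite calls among 7505 with 2 or more probes. Ccnd1 had a difference of 0.76 ± 0.54 (SE, adjusted p = 0.389).

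Targets of p53, which halts or kills stressed cells, were mixed. Of 24, 6 rose and 4 fell, which is 41.7% called beside 19.2% of all genes. Without the 4 arrays of highest E1A signal 1 was higher and 2 lower, 12.5% beside 12.8% of all genes. Tnfrsf10b, a death receptor, rose 3.07-fold, and the death genes Bax and Pmaip1 rose 2.46-fold and 4.91-fold (for Pmaip1 with overlapping groups and a call lost under 5 of 22 settings), while the death receptor Fas fell 5.12-fold. Trp53 itself had 2.99, 3.03, 4.15 and 2.86 in tumors, against 3.02, 2.90, 2.34 and 2.00 in pre-tumor livers, and did not pass (adjusted p = 0.313). Cdkn1a (p21) had 0.58, 0.61, 1.87 and 2.11 in tumors, against 1.67, -0.56, -0.23 and -0.45 in pre-tumor livers, with overlap and an adjusted p of 0.138. Of 28 cell death regulators 3 rose and 5 fell, 28.6% of the list. Among those that fell were Casp8 by 1.57 log2 units, which starts apoptosis, and Cflar by 2.58, Birc2 by 2.19 and Birc3 by 1.603, which hold it back. Without those 4 arrays 0 were higher and 3 lower, 10.7% beside 12.8% of all genes.

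Building-block synthesis rose. Of 26 genes of nucleotide synthesis 18 rose, by a median of 1.87. Impdh1, of guanine nucleotide synthesis, had 1.27, 0.97, 3.21 and 1.39 in tumors, against -3.93, -2.96, -4.19 and -3.99 in pre-tumor livers (44.6-fold, adjusted p = 1.09e-06), well above background on 1 of the pre-tumor arrays. The ribonucleotide reductase subunit Rrm2 rose 27.9-fold, Uck2 8.72-fold and Ctps, CTP synthase, 6.88-fold. Of 27 genes of glutamine, serine and one-carbon synthesis, 12 rose and 3 fell. Psat1, the aminotransferase of serine synthesis, had 6.07, 5.74, 5.61 and 5.31 in tumors, against -1.32, 0.13, -1.80 and -1.88 in pre-tumor livers (119-fold, log2 difference 6.90 ± 0.47, SE, adjusted p = 6.07e-08). All tumor arrays lay above all pre-tumor arrays. Psph and Phgdh, the other enzymes of that route, were higher by 4.06 and 2.63 log2 units. Mthfd1l, of mitochondrial folate metabolism, rose 27.3-fold, Asns, asparagine synthetase, 14.8-fold, and the glutamine importer Slc1a5 26.6-fold. The genes that fell were Aldh1l1, a cytosolic folate enzyme, 63.7-fold, Oat 8.45-fold and glutamine synthetase, Glul, 3.34-fold, the call of Glul being lost under 2 of 22 settings.

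Some genes for alternative forms of the same glycolytic enzyme moved in opposite directions. Of 23 genes of glycolysis and lactate, 9 rose and 3 fell, while of 23 genes of hepatic glucose handling 14 fell and 1 rose. Glycolysis had 6 higher and 1 lower without the 4 arrays of highest E1A signal. Pkm, a pyruvate kinase gene whose forms include that of growing and fetal tissue, had 4.79, 4.88, 3.95 and 4.92 in tumors, against 0.37, 1.29 and 0.05 in pre-tumor 1 to 3, the spot on pre-tumor 4 being marked as an outlier (16.7-fold, adjusted p = 5.69e-06). Which Pkm form the probe binds was not tested. Pklr, the pyruvate kinase of hepatocytes, had 2.36, 2.34, 1.49 and 1.68 in tumors, against 3.16, 2.81, 4.97 and 3.01 in pre-tumor livers, 2.87-fold lower (adjusted p = 0.0271), a call lost under 7 of 22 settings. Hk2, a high-affinity hexokinase, had -0.10, -1.53, 0.71 and -0.44 in tumors, against -2.81, -2.56, -3.79 and -2.04 in pre-tumor livers (5.49-fold higher, adjusted p = 0.00219). Groups did not overlap in these 3 genes. The aldolase Aldoa rose 5.59-fold, and Pfkl, Eno1 and the lactate exporter Slc16a3 rose 4.90-fold, 5.29-fold and 8.00-fold. Fbp1, a key enzyme of glucose production, had -1.08, -1.59, 0.45 and -1.18 in tumors, against 5.96, 5.11, 7.04 and 5.83 in pre-tumor livers, a 114-fold fall (adjusted p = 5.41e-08). Khk, fructokinase, fell 9.07-fold and Gys2, the liver glycogen synthase, by 3.90 log2 units. Gls2, the liver-type glutaminase, had a difference of -1.21 ± 0.45 (SE, adjusted p = 0.0718) and did not pass. In the pentose phosphate pathway G6pdx rose 4.31-fold and Pgd 2.57-fold while H6pd, the form of the endoplasmic reticulum, fell 5.32-fold, with 5 of the 8 genes not passing. The Pgd call was lost under 9 of 22 settings, so that 1 of the 8 was higher without the 4 arrays of highest E1A signal.

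**Figure D3:**
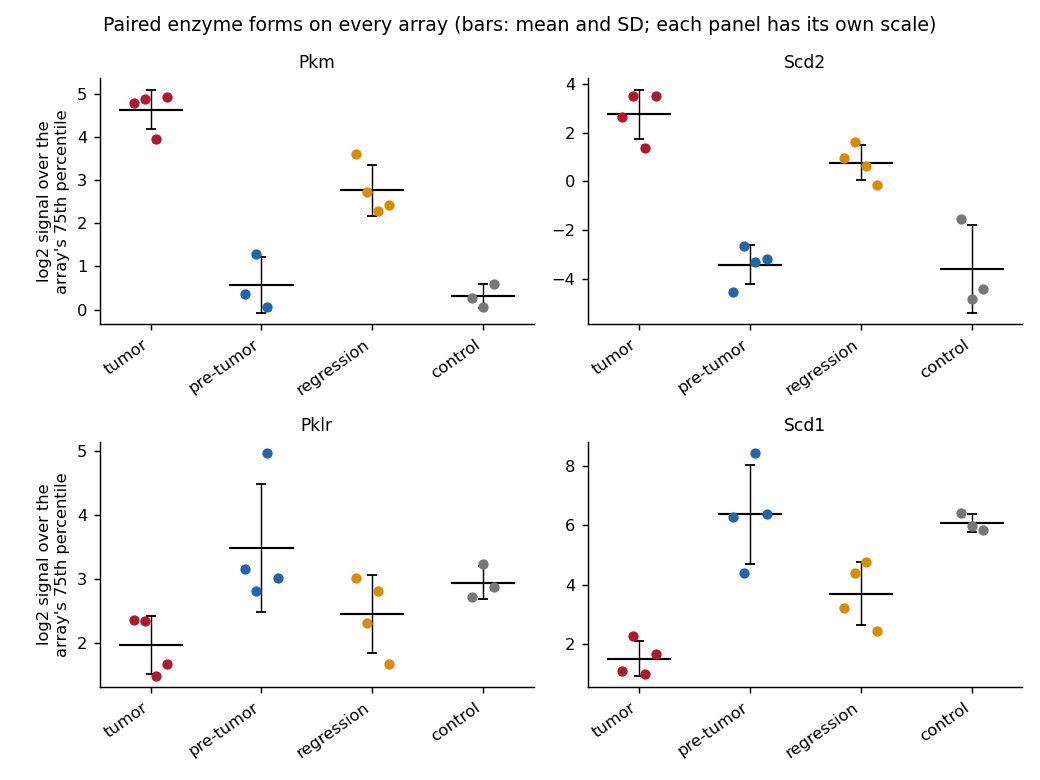
Level of 2 enzyme pairs on each array (y axis, log2 signal over the array's 75th percentile, own scale per panel), with the form known from growing or fetal tissue or brain in the top row and the form of adult hepatocytes below; points are arrays, lines and bars are the mean and SD. Pkm and Scd2 are higher in tumor than in pre-tumor and Pklr and Scd1 lower, without overlap between the groups.

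In oxidative phosphorylation 0 of 39 genes passed in limma, with 1 higher and 3 lower at an unadjusted p under 0.05, and a median log2 difference of -0.04. The slides differed: the mean difference of the list was 0.40, 0.59 and 0.32 on slides 1 to 3 and -1.35 on slide 4, which held tumor 4 and pre-tumor 3. The list averaged 3.44 to 4.17 in tumors and 3.42 to 4.79 in pre-tumor livers, highest on pre-tumor 3, and its median difference without pre-tumor 3 was 0.23. The widest differences were 1.17 ± 0.53 for Ndufv2 and -0.93 ± 0.40 for Sdha (SE, adjusted p = 0.157 and 0.134). With normexp background correction and quantile normalization 4 were higher and 5 lower.

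Genes of lipid metabolism fell in part. Of 27 genes of fatty acid synthesis 13 fell and 1 rose, with 8 lower under median centring. Scd1, the stearoyl-CoA desaturase of liver, had 1.099, 2.29, 1.01 and 1.66 in tumors, against 6.26, 4.39, 8.43 and 6.37 in pre-tumor livers, a 28.8-fold fall (adjusted p = 8.63e-05). Scd2, the form known from brain and fetal liver, had 2.63, 3.498, 1.35 and 3.51 in tumors, against -4.55, -2.64, -3.31 and -3.17 in pre-tumor livers, a 71.5-fold rise (adjusted p = 8.75e-06). The paired desaturases thus moved apart without overlap between groups. Insig2, which holds back sterol-regulated transcription, fell 23.7-fold and the elongase Elovl5 9.70-fold. Of 33 genes of fatty acid oxidation and ketogenesis 18 fell, by a list median of -1.26, including the fatty acid binding protein Fabp1 12.8-fold and the peroxisomal thiolase Acaa1b 15.6-fold. Of 24 cholesterol synthesis genes 18 did not pass and 5 fell, among them Tm7sf2 7.68-fold and Ebp 4.31-fold, and 1 rose. Without the 4 arrays of highest E1A signal 8 were lower and none higher. The mean difference of the cholesterol list was -1.38 to 0.50 over the 4 slides.

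Among 37 oncofetal and progenitor genes, 15 rose and 2 fell, with 16 higher and 1 lower without the 4 arrays of highest E1A signal. Afp, the fetal relative of albumin and a tumor marker, had 7.24, 7.82, 7.03 and 6.94 in tumors, against -4.75, -2.07, -2.48 and -4.88 in pre-tumor livers, where it was well above background on 2 of 4 arrays. The log2 difference was 10.80 ± 0.55 (SE, 1785-fold, adjusted p = 1.49e-08), the largest rise of the comparison. Regression tumors had 9.36, 9.12, 9.76 and 9.39, and control livers -4.85, -4.85 and -3.93. Igf2, the fetal insulin-like growth factor, had 7.28, 6.22, 8.00 and 5.46 in tumors, against -2.94, -2.44, -1.55 and -1.64 in pre-tumor livers (471-fold, adjusted p = 3.14e-08). H19, the long non-coding RNA of the same imprinted domain, had 9.17, 10.16 and 8.69 in tumor 2 to 4, the spot on tumor 1 being marked, against -1.17, 0.10, 1.64 and -1.32 in pre-tumor livers (739-fold). The second probes of Igf2 and H19 gave log2 differences of 8.26 and 9.67. Bex2, an X-linked small signalling protein, had 5.66, 5.76, 3.58 and 4.94 in tumors, against -4.37, -3.26, -4.61 and -1.87 in pre-tumor livers, with 1 of those 4 well above background. Bex4 rose 71.7-fold, Bex1 158-fold and Bex3 88.3-fold, the last 2 over 3 tumor arrays, and these neighbouring genes are alike in sequence. Dlk1, a Notch-family ligand of fetal liver, rose 5.48-fold, and the chromatin protein Hmga1 and the RNA-binding Igf2bp3 were higher by 3.74 and 3.17 log2 units. Gpc3, a fetal surface proteoglycan, had -4.92, -4.96, -1.93 and -2.26 in tumors, against -3.02, -3.86, -4.60 and -1.39 in pre-tumor livers, and did not pass (adjusted p = 0.869). It was 2.06, 2.03, 2.08 and 0.15 in regression tumors. The list thus split into genes that rose by 2.45 to 10.80 log2 units and 20 that did not pass, among them Lin28b, Hmga2, Sox9 and Epcam. Akr1b8 fell 3.30-fold and decorin, Dcn, 5.08-fold, the Dcn call being lost under 9 of 22 settings.

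Hepatocyte markers were still measured in the nodules, at lower levels than in pre-tumor livers. The 6 defining markers measured on every array averaged 3.16 on tumor 3 and 1.55 to 2.17 on the other tumor arrays. Whether this RNA came from tumor cells or from normal liver tissue in the nodules was not tested. All 9 defining markers measured fell and each was well above background on 2 or more tumor arrays. Of these, 7 were lower under median centring, and 7 without the 4 arrays of highest E1A signal. Albumin (Alb) had 7.48, 8.18, 8.51 and 7.04 in tumors, against 9.92, 10.07, 11.22 and 9.44 in pre-tumor livers (5.14-fold lower, adjusted p = 0.00071). Transferrin (Trf) fell 3.28-fold and apolipoprotein B (Apob) 5.32-fold. Of 32 liver transcription factors 13 fell, by a list median of -1.03, and the rest did not pass. With the 4 arrays of highest E1A signal left out 1 was higher and 12 lower. Gata6 fell 8.28-fold, Onecut2 8.48-fold, the thyroid hormone receptor Thrb 4.69-fold, and Zhx2, a repressor of Afp after birth in mice, 5.85-fold. The estrogen receptor Esr1 was well above background on no tumor array and at least 1.63-fold lower. The central factors Hnf4a and Cebpa did not pass: Hnf4a had 2.55, 2.48, 2.69 and 1.79 in tumors, against 2.73, 2.68, 3.70 and 2.24 in pre-tumor livers, a difference of -0.46 ± 0.37 (SE, adjusted p = 0.471), and Cebpa one of -0.61 ± 0.58 (SE, adjusted p = 0.540).

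Secreted proteins fell almost without exception in the main fit: 40 of 41 were lower, and Kng1 did not pass at -1.27. Under median centring 28 of 41 were lower, with a list median of -2.12. Without the 4 arrays of highest E1A signal 33 were lower, with a median of -2.44. Coagulation factor IX (F9) fell 44.5-fold, C8a of the complement 32.0-fold over 3 pre-tumor arrays, apolipoprotein A-V (Apoa5) 57.5-fold and coagulation factor V (F5) 22.5-fold. Their list averaged 1.61 to 3.31 in tumors and 4.51 to 5.84 in pre-tumor livers, beside 4.33 to 4.58 in regression tumors and 4.72 to 5.14 in control livers. Acute phase proteins, which the liver releases in inflammation, had still larger changes: 22 of 28 fell by a list median of -4.57 and 1 rose. Serum amyloid Saa2 had 0.46, -0.97, -1.34 and 1.75 in tumors, against 8.95, 9.62, 10.04 and 7.99 in pre-tumor livers, a 577-fold fall and the largest of the comparison (adjusted p = 2.24e-06). Saa3 fell 456-fold, the orosomucoids Orm1 and Orm2 275-fold and 104-fold, and the serpins Serpina3c and Serpina3k 263-fold and 225-fold. Members of these 3 families are alike in sequence, so a probe may bind more than its named gene. The gene that rose was A2m, a protease inhibitor, with -0.57, -0.25, -0.87 and -1.88 in tumors, against -3.81, -3.42, -4.70 and -2.83 in pre-tumor livers (6.94-fold, adjusted p = 0.000132).

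Of the liver genes that differ between the sexes, most male-biased and fewer female-biased ones fell. Of 21 major urinary protein and male-biased genes 19 fell, with the lowest median of the 47 lists, -5.34. Mup1 had 2.50, 3.27, 0.08 and 3.87 in tumors, against 10.55, 10.94, 11.83 and 10.29 in pre-tumor livers (355-fold, adjusted p = 1.74e-05), and near-identical Mup genes share such probes. Keg1 fell 150-fold, Ugt2b1 225-fold and Ugt2b38 115-fold. Of 21 female-biased genes 9 fell and 12 did not pass, and without the 4 arrays of highest E1A signal 8 were lower and 1 higher. Among those that fell was Cyp2a4, a steroid hydroxylase, at -2.25, -2.10, -1.53 and -1.15 in tumors, against 5.46, 5.88, 6.25 and 5.03 in pre-tumor livers (170-fold, adjusted p = 2.68e-08), with Cyp2a5 at 166-fold and Cyp3a41a at 60.1-fold. The Cyp2a5 probe read close to the Cyp2a4 probe in pre-tumor livers, at 5.72, 5.99, 6.23 and 4.84. It was less close in tumors, at -2.47, -2.65, -0.63 and -0.96. Whether the Cyp2a and Cyp3a probes bind only their named genes was not tested. The prolactin receptor Prlr fell 33.8-fold. Sex of the mice is not given in the labels. The Y-linked Ddx3y had -0.73, -0.75, -1.87 and -1.06 in tumors, against -0.09, -0.21, 0.81 and -0.23 in pre-tumor livers (2.25-fold lower, adjusted p = 0.0195), a call lost under 7 of 22 settings, those 4 arrays left out among them. Xist, made from the inactive X of females, had -2.25, -0.52, -2.35 and -2.13 in tumors, against -1.68, -0.84, -4.01 and -1.37 in pre-tumor livers, and did not pass (adjusted p = 0.926).

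Detoxification and bile genes fell in most cases. Of 29 cytochrome P450 genes 28 were lower, by a list median of -4.23. Cyp2e1, an ethanol and drug oxidase of central hepatocytes, had -2.93, -5.25, -0.70 and -2.76 in tumors, against 5.41, 4.57, 5.95 and 5.26 in pre-tumor livers, a 295-fold fall (adjusted p = 0.000164), with wide spread among tumors. Cyp2c29 fell 44.9-fold, Cyp3a11 46.9-fold and Cyp2j5 88.5-fold. Of 31 conjugation enzymes 28 fell, including the glucuronosyltransferases Ugt2b5 and Ugt3a2, both 153-fold, and the glutathione transferase Gstm6, 42.7-fold. Of 30 genes of bile acid synthesis and transport 24 fell, among them the uptake carrier Slco1b2, 141-fold, Slc27a5, which activates bile acids, 128-fold, and Baat, which couples them to amino acids, 126-fold. Of 24 Wnt targets and zonation genes 12 fell, from both ends of the lobule, and 11 were lower and 1 higher without the 4 arrays of highest E1A signal. Cyp1a2 (112-fold) and the glutamate carrier Slc1a2 (58.2-fold) are central genes, and Cyp2f2 (264-fold) is a portal one. Regression tumors were intermediate in list mean for P450 genes, at 0.60 to 1.83, beside -1.03 to -0.44 in tumors, 3.35 to 4.69 in pre-tumor livers and 3.33 to 3.88 in control livers.

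Amino acid breakdown and the urea cycle fell in 30 of 44 genes, by a list median of -2.22. Agxt fell 22.9-fold, Aass, of lysine breakdown, 107-fold, and the tryptophan enzymes Tdo2 and Kmo 92.6-fold and 34.2-fold. Otc and Cps1 of the urea cycle fell by 4.95 and 2.49 log2 units. In glutathione metabolism, 6 of 23 genes fell and 3 rose. Gclc, the catalytic subunit of glutathione synthesis, fell 4.48-fold, while its modifier Gclm had a difference of -0.36 ± 0.44 (SE, adjusted p = 0.661). The peroxidase Gpx1 fell 6.76-fold and Ggt1, a surface enzyme that splits glutathione, rose 41.8-fold.

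Interferon response genes fell in 28 of 36 cases, by a list median of -2.50. Cxcl9, a chemokine that draws T cells, had -2.72, -2.04, -2.83 and -3.40 in tumors, against 4.16, 6.02, 3.55 and 2.25 in pre-tumor livers, 0.88, 1.21 and 2.50 in controls and -1.05 to 1.45 in regression tumors (107-fold lower in tumor than in pre-tumor, adjusted p = 3.32e-06). Ifit1, an antiviral RNA sensor, had -5.18, -3.27, -2.35 and -3.13 in tumors, against 2.63, 0.44, 3.83 and 1.66 in pre-tumor livers (49.3-fold, adjusted p = 4.27e-05). The GTPases Iigp1 and Irgm2 fell 120-fold and 22.5-fold. Of 15 antigen presentation genes 9 fell. The class I heavy chain H2-K1 had 2.63, 2.59, 3.88 and 2.17 in tumors, against 5.56, 5.58, 6.42 and 4.72 in pre-tumor livers (6.73-fold lower), and its light chain B2m fell 5.96-fold. H2-D1, H2-Q7 and H2-T23 fell 6.35-fold, 5.84-fold and 6.22-fold, but class I genes are alike in sequence. On the 4 slides the mean difference of the interferon list was -3.11 to -1.94.

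Markers of other cell types moved in part and in both directions. Called were 45.8% of macrophage, 35.7% of neutrophil, 33.3% of bile duct, 30.4% of endothelial and 25.9% of stellate markers, beside 19.2% of all genes. Erythroid (12.5%), B and plasma cell (8.33%) and T and NK cell markers (4.76%) were below that share. Without the 4 arrays of highest E1A signal neutrophil, bile duct and stellate lists were at 14.3%, 13.3% and 14.8%, beside 12.8% of all genes. Of 24 macrophage markers 7 rose and 4 fell. Cd68, a lysosomal protein of phagocytes, had 2.89, 2.85, 3.96 and 2.06 in tumors, against 0.05, -0.14, -0.87 and -0.92 in pre-tumor livers (10.6-fold, adjusted p = 3.99e-05), and was 4.20 to 5.28 in regression tumors. Lyz2 rose 6.11-fold and the complement genes C1qa, C1qb and C1qc by 2.14, 1.77 and 1.90 log2 units. Clec4f, a receptor of resident Kupffer cells, had -0.31, -1.15, -0.15 and 0.40 in tumors, against 3.48, 1.52, 3.14 and 2.66 in pre-tumor livers (8.03-fold lower, adjusted p = 0.00449), and the scavenger receptor Marco fell 6.63-fold. The pan-macrophage genes Adgre1 and Csf1r did not pass. Without the 4 arrays of highest E1A signal 6 were higher and 1 lower. As a list macrophage markers averaged 0.58 to 0.85 in tumors and 0.16 to 1.21 in pre-tumor livers, which overlap. Of 23 endothelial markers 7 fell, by a list median of -0.95, led by the sinusoidal genes Dnase1l3 (14.9-fold) and Clec4g (16.3-fold), and their mean level was -1.51 to -1.24 in tumors and -0.66 to -0.15 in pre-tumor livers. Of 27 stellate cell and fibroblast markers 4 rose and 3 fell: the collagens Col1a1, Col1a2 and Col3a1 rose 5.62-fold, 6.28-fold and 4.12-fold, while Reln fell 9.04-fold and Lum was at least 2.43-fold lower, with 2 higher and 2 lower without those 4 arrays. Of 14 neutrophil markers 5 fell, among them Fpr2 8.48-fold, and S100a8 and S100a9 lost their calls under 12 and 6 of 22 settings, 2 of the 14 being lower without those 4 arrays. Of 21 T and NK cell markers 1 rose. Sdc1, 1 of 12 B and plasma cell markers, fell 2.69-fold, and Car1 (at least 3.80-fold) and Alas2 (6.35-fold), 2 of 16 erythroid markers, fell. Bile duct markers were mixed, with 2 of 15 higher (Bicc1 and Cldn7) and 3 lower (Aqp1, Spp1 and Krt23), but 1 higher and 1 lower without those 4 arrays. The groups overlapped for Krt23, whose call was lost under 9 of 22 settings, that of Spp1 under 4 and that of Cldn7 under 1. In each of these lists 1 to 3 genes were well above background on no tumor array, among them Spp1, Gzma, Gzmb, Jchain, S100a8, Sox17, Sox18 and Lum. The part of these cells in the changes of the hepatocyte, interferon and oncofetal lists was not tested.

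Smaller lists completed the comparison. Of 23 hypoxia and angiogenesis genes 4 rose and 4 fell, with 2 higher and 4 lower without the 4 arrays of highest E1A signal. Vegfa, the vessel growth factor, had 0.21, -0.04, 0.53 and 0.19 in tumors, against 2.70, 2.86, 2.83 and 2.12 in pre-tumor livers (5.31-fold lower, adjusted p = 7.41e-05), and its receptor Kdr fell 3.67-fold, while Anxa2 and Ndrg1 rose 8.41-fold and 5.43-fold. Of 29 unfolded protein and amino acid stress genes 5 fell and Asns rose, which is 20.7% called beside 19.2% of all genes, and 2 were lower under median centring. Among those that fell were Dnajb9 and Edem1, of protein folding in the endoplasmic reticulum, at 3.19-fold and 2.75-fold lower. Of 15 clock genes 4 fell (Nr1d2, Dbp, Per3 and Clock), 26.7% beside 19.2% of all genes. All 4 calls were lost under 2 or more of 22 settings. Of 19 immediate early and heat shock genes Hsp90aa1 rose 3.09-fold and Zfp36 fell 3.16-fold, calls lost under 5 and 8 settings, both without the 4 arrays of highest E1A signal.

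**Figure D4:**
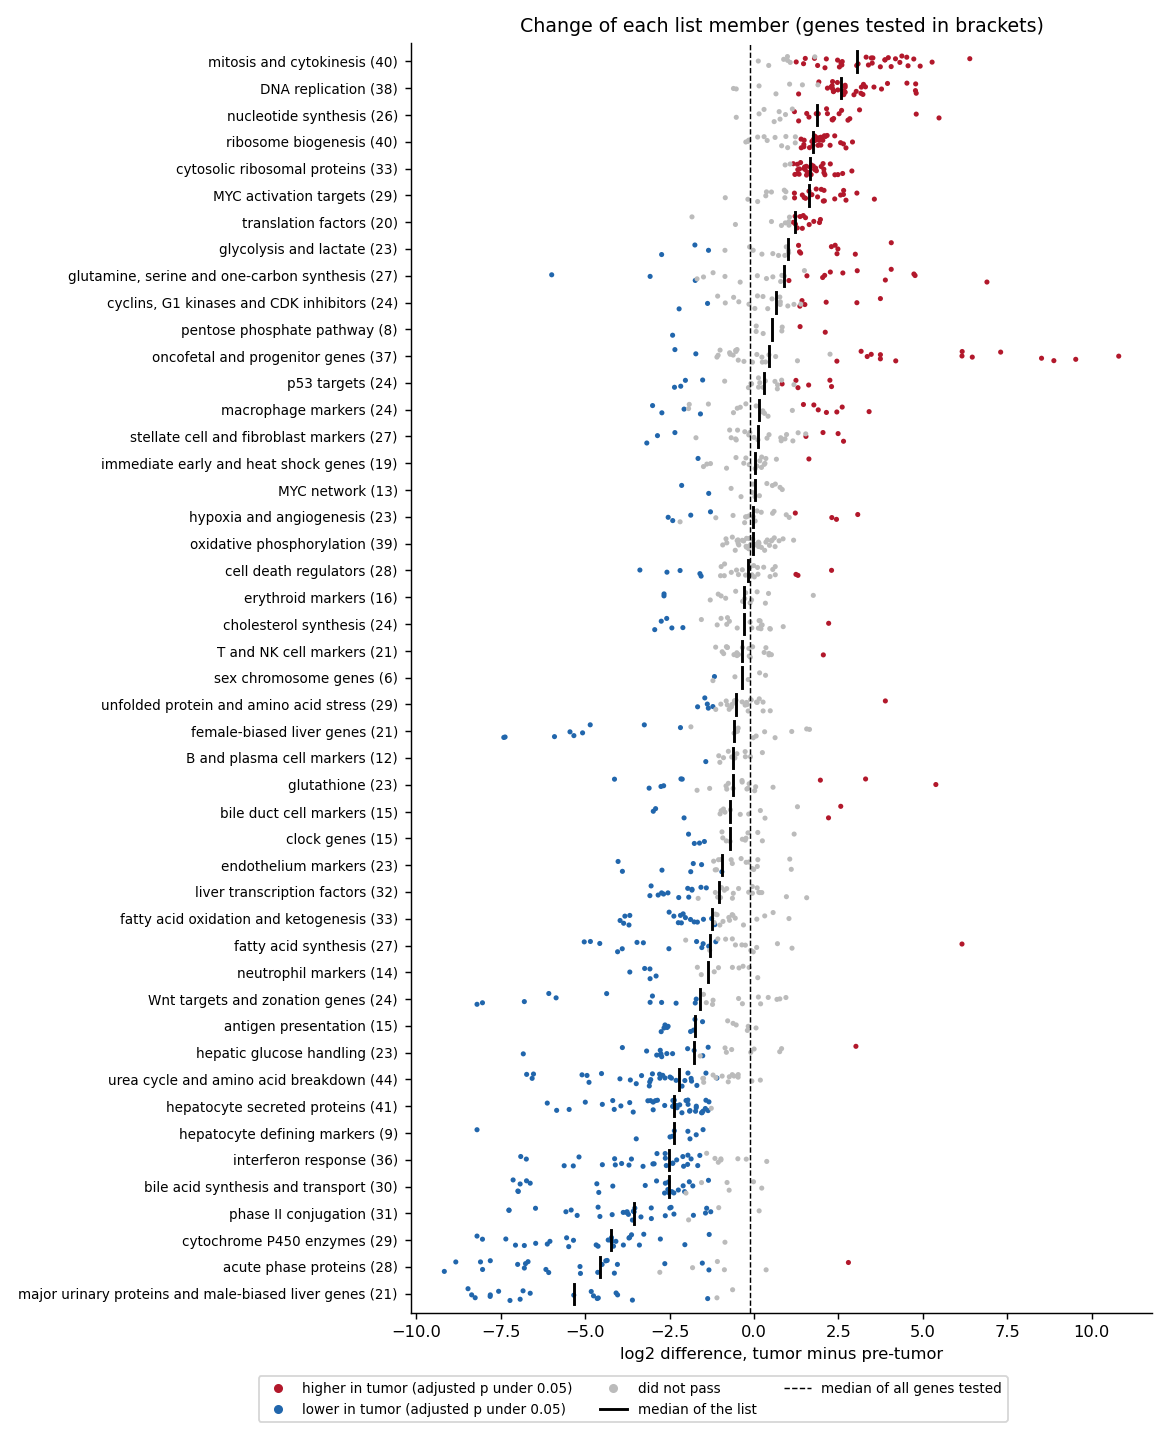
Log2 difference, tumor minus pre-tumor (x axis), of every measured member of the 47 gene lists (y axis, with the genes tested in brackets); red points passed as higher in tumor, blue points as lower, grey points did not pass, and black bars are list medians. Medians run from 3.06 for mitosis and cytokinesis to -5.34 for major urinary proteins and male-biased liver genes, beside the dashed median of all genes at -0.13.

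**Figure D5:**
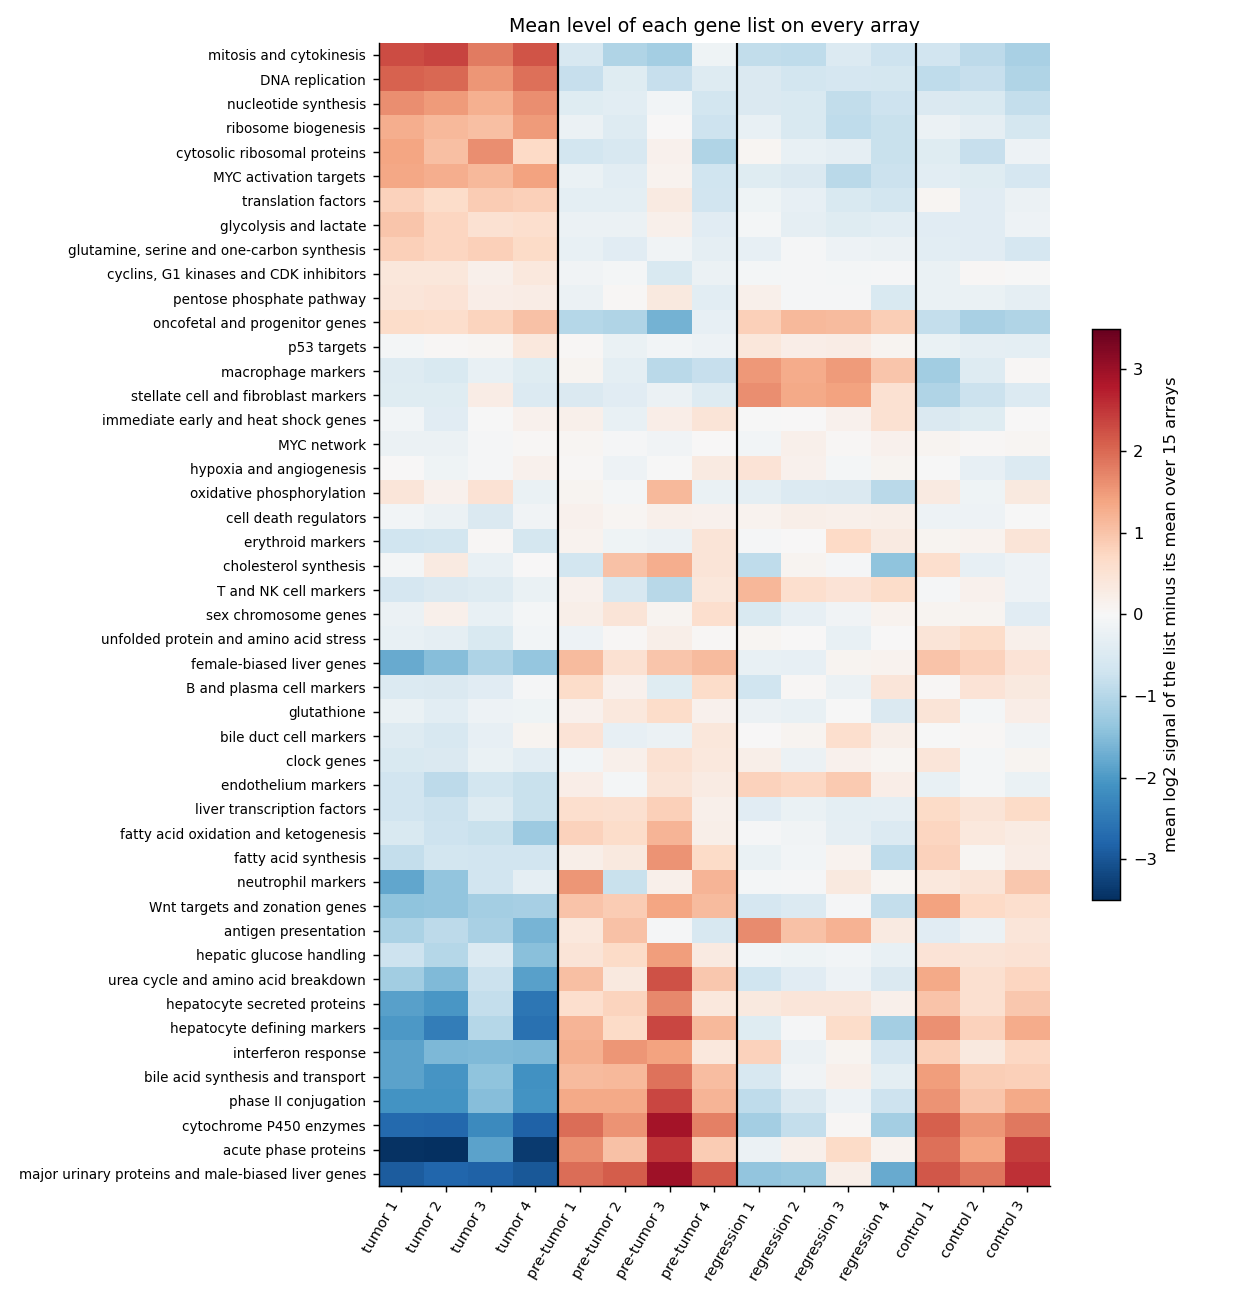
Mean log2 signal of each list on each array minus the list's mean over the 15 arrays (colour scale), with lists in rows, ordered by their tumor minus pre-tumor median, and arrays in columns, grouped as tumor, pre-tumor, regression and control. The tumor columns are red in the division, ribosome and nucleotide lists and blue in the hepatocyte lists.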

How the data were processed

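Samples were grouped by their labels alone. RNA was amplified with a Sigma whole transcriptome kit, labelled in 1 colour and hybridised in equal amounts, per the labels' protocols. The authors deposited scanner files whose spot intensity values had been background-subtracted in Agilent Feature Extraction 10.5.1.1, per the file headers, and a table of log2 values that the authors made from the same arrays and whose normalization is not given in the sources used here. The log2 of the deposited processed signal minus the array's 75th percentile was computed, leaving out control spots and spots marked as outliers (0.452% of spots), and repeated spots of the same probe were averaged. Probes were kept where well above background on at least 3 of 15 arrays, and a gene was represented by its passing probe of highest mean. Of 41174 probes 34908 have a symbol in the files, and 20160 of 21538 symbols were found in the RefSeq table. The 4 groups were fitted in limma 3.58.1 (R 4.3.3, 11 residual degrees of freedom), with two-sided p-values adjusted by Benjamini-Hochberg across every gene and called under 0.05. The script was tested on simulated data. The number of arrays limits the precision.

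Gene lists and members were chosen with earlier results of these data known. Named genes are the 12 largest rises and falls without overlap between groups, with 2 or more arrays of both groups well above background and an established symbol, the 4 largest bounds each way, up to 5 members of each list by adjusted p, and a set always given. Further list members are named after their values were seen. Alternatives covered background correction, normalization, the filter on dim probes, probe choice, slide and replicate blocks, array weights, each array left out, and the authors' table. The normexp alternative used the median spot signal, because no mean signal was in the files used here, a choice made after seeing the data, as was leaving out the 4 arrays of highest E1A signal. Results for a few genes are not reported here.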

Additional observations from a re-analysis of the deposited data

Results flagged for a closer look

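Within each group of 4 arrays, a value was singled out where its gap to the nearest other array, as a share of the range of the group, passed Dixon's 95% limit. This met 42 of 501 checks (8.38%), where chance gives about 1 in 20. Of these, 12 were on tumor 3 and 19 on pre-tumor 3, which had the lowest share of spots well above background of their groups (46.4% on tumor 3 and 54.2% on pre-tumor 3). All values are log2 levels, and the causes were not tested.

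On tumor 3 the level stood above the other arrays of the group for Nhp2 at 4.81, Orm2 at 0.40, Aqp1 at 1.098 and Trp53 at 4.15. The level on tumor 3 stood below the others for Bex4 at 2.96, Aurkb at -1.25, Mad2l1 at 2.93, Birc2 at -2.36, Ugt3a2 at -2.08, Slc1a5 at 2.18, Pkm at 3.95 and Dnajc3 at 1.30. On tumor 4 the level stood above the other arrays of the group for Srxn1 at 0.79. The level on tumor 4 stood below the others for Mki67 at 1.27 and Ccnd1 at 0.47. On tumor 1 the level stood above the other arrays of the group for Agxt at -0.95. On tumor 2 the level stood above the other arrays of the group for Xist at -0.52. On pre-tumor 3 the level stood above the other arrays of the group for Serpina3k at 9.92, Pigr at 3.11, Phlda3 at -3.38, Itih1 at 3.91, Ddx3y at 0.81, Cyp2j5 at 5.21, Slco1b2 at 5.99, Impdh2 at 1.23, Eno1 at 3.91, Khk at 8.49, Gpx1 at 9.60, Ebp at 3.94, Edem1 at 1.83, Cyp1a2 at 6.13, Gulo at 6.12, Lect2 at 4.99 and Pklr at 4.97. The level on pre-tumor 3 stood below the others for Ccne2 at -1.96 and Asns at -0.90. On pre-tumor 4 the level stood above the other arrays of the group for Ndrg1 at -0.31. The level on pre-tumor 4 stood below the others for Ctps at -1.61 and Max at -0.81. The level on pre-tumor 2 stood below the others for Cdkn1c at -1.26 and Krt23 at -5.00. On pre-tumor 1 the level stood above the other arrays of the group for Cdkn1a at 1.67.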

How the results depend on the processing

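Of the 235 called genes among the 257 named, 187 kept their direction and their call under all 22 other settings, and 37 of the 47 list medians kept their sign. Array weights raised the counts to 8203 changed genes, 3579 higher and 4624 lower. Without the 4 arrays of highest E1A signal 1003 genes were higher, 1459 lower and 2462 changed. Leaving out 1 array at a time gave 2883 to 3917 changed genes, 1460 to 2049 higher and 1423 to 2173 lower. E2f8 reversed to 0.082 with the mean of a gene's probes, its probes having opposite signs. Median centring moved the median of all genes to 0.10, from -0.13, and gave 1855 higher and 1199 lower genes. Calls were lost most often for S100a8 (12 settings), Clock (11), Herpud1, Rbl2 and Mlxipl (10 each). Apart from the probe average, the causes were not tested. Same-numbered tumor and pre-tumor arrays had deviations from their group mean correlated at -0.07, 0.49, 0.22 and 0.61. Those on the same slide had -0.07, -0.23, -0.11 and -0.27. The numbers were not taken as pairs in the main fit, a choice that these values do not settle. With the replicate block 1836 genes were higher and 2356 lower, 4192 in all. With 4 arrays a group and dim spots near background, small changes of faint genes could not be detected here. The limit was not confined to these. In data simulated from the spread of each gene, 10% of 2-fold, 55% of 4-fold and 91% of 8-fold changes passed. Only 100 genes of each size were changed there, so the adjusted threshold was stricter than in the data. These shares may therefore be lower than those of the comparison itself. A gene that did not pass may therefore still have changed.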

Other observations

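Among 4031 tested probes without a gene symbol, fitted on their own, 234 passed, 142 higher in tumor and 92 lower. Among all 33957 probes, adjusted together, 16.9% passed. The separate adjustments set unlike thresholds, so these results were not compared.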
